A study of Mus musculus with 6 samples.

Results

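Chemokine receptors are membrane proteins that leukocytes, endothelial cells and some tumor cells use to sense chemokines, the small secreted proteins that guide cell migration. The genes described here are 9 members of this family, Ccr1, Ccr2, Ccr7, Cxcr2, Cxcr3, Cxcr4, Cx3cr1, Ccrl2 and Ackr3, taken by gene name from a table of 33965 genes. Each name matched 1 gene of the table. Their RNA was compared between 3 MC38 tumors of mice given PBS and 3 MC38 tumors of mice given GB2, a prodrug made of artesunate and MSA-2, an agonist of the innate sensor STING. MC38 is a mouse colon carcinoma line, here inoculated under the skin of C57BL/6 mice, and both groups carried the same line in the same strain. The study's methods describe the mice it bought as young females. The labels give no age, sex, dose or sampling day for these tumors, nor do they say that every tumor came from its own mouse, so the p values below measure the spread between these 6 tumors.

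Most chemokine receptors couple to inhibitory G proteins, and the cell moves toward a rising ligand concentration. In tumors, Ccr2 is best known for bringing in monocytes, Ccr1 and Cxcr2 for myeloid cells and neutrophils, Cxcr3 for activated T cells, and Ccr7 for the passage of dendritic cells and T cells to lymph nodes. Cx3cr1 marks monocytes and tissue macrophages, and Cxcr4 holds cells near stroma that makes its ligand Cxcl12. Ccrl2 and Ackr3 are atypical receptors, which bind a ligand without the usual G protein signal. Ccrl2 presents chemerin to neighbouring cells, and Ackr3 takes up and clears Cxcl12.

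All 9 receptor genes had a higher mean in GB2 than in PBS tumors. The fitted log2 differences ran from 0.62 for Cxcr3 to 2.26 for Ccr1, with a median of 1.36, against a median of -0.02 over all 19602 genes tested. None of the 9 passed the limits of the study, an adjusted p under 0.05 together with a 2-fold change (quasi-likelihood test of edgeR, Benjamini-Hochberg adjustment), where 0% of all genes tested passed. A gene past these limits is termed called. An unadjusted p under 0.05 was reached by 5 of the 9, all higher in GB2 tumors, against 4.69% of all genes in that direction, and 4 of these, Ccr1, Cxcr2, Cx3cr1 and Ccrl2, were also at least 2-fold higher. Over all genes, 3.74% passed these unadjusted limits as higher and 0.918% as lower in GB2 tumors, and 0 of the 9 receptors were lower. In 7 of the 9 genes all GB2 tumors exceeded all PBS tumors, the exceptions being Ccr2 and Cxcr3, against 8.61% of all genes. The opposite order, which 6.68% of all genes showed, was seen in 0 of the 9. DESeq2 called 2 of the 9, Ccr1 and Cxcr2, where it called 1.73% of the genes to which it gave an adjusted p, and 7 of the 9 had an unadjusted p under 0.05 in its test, against 3.73% of all genes it tested that were higher. Ccr7 and Cxcr2 reached the filter's cutoff in only 2 of 3 PBS tumors but in all GB2 tumors. Of the 7 receptors at the cutoff in all 6 tumors, 3 passed the unadjusted limits (3.71% of the 16317 genes at the cutoff in all tumors) and 5 had groups without overlap (8.39%), a count added after the data were seen.

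Total counts ran from 64764405 to 83690056, with the 3 GB2 libraries the largest. Low deposited values gather at 4 and 8, and about 4 counts were taken as 1 read pair, a ratio that was not measured directly. On that basis the least abundant receptors rest on few molecules. Ccr7 rests on 1.5 to 9.0 read pairs per tumor and Cxcr2 on 1.8 to 21.8, against 42.8 to 127.8 for Ackr3. PBS tumor 1 stood apart on the first principal component of all genes (34.0% of the variance). Without it, 4 receptors passed the unadjusted limits as higher (4.63% of all genes), and in 7 all GB2 tumors lay above the remaining 2 PBS tumors (15.2% of all genes). The labelled carcinoma was checked against a list of epithelial markers, whose sum ran from 2.60 to 5.97 CPM (counts scaled to a common library size) in PBS and from 3.64 to 7.74 CPM in GB2 tumors. Epcam stood at 0.285 CPM in PBS and 0.884 CPM in GB2 tumors, and was the only 1 of the 4 tested markers past the unadjusted limits. Krt8 (log2 fold change 0.41), Krt18 (0.28) and Cdh1 (0.50) did not pass, and Krt8 had 0 counts in GB2 tumor 1.

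Promoters of 8 of the 9 genes were found in the RefSeq table on GRCm38.p6, each 300 bases long from 250 bases before to 50 after the annotated start, and Ccr7 was not matched. The promoters of the receptors with the largest changes, Ccr1 (chr9:123968643-123968942, minus strand) and Cxcr2 (chr1:74153744-74154043, plus strand), and of the most abundant ones, Cxcr3 (chrX:101734098-101734397, minus strand) and Cxcr4 (chr1:128592250-128592549, minus strand), are given 5′ to 3′. Capitals mark a match on either strand to any of 5 searched motifs.
Ccr1: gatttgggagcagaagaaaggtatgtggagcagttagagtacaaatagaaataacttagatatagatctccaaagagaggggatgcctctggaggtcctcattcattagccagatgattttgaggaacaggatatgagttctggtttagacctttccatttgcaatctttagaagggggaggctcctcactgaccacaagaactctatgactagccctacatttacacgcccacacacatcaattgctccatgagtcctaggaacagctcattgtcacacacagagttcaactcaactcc
Cxcr2: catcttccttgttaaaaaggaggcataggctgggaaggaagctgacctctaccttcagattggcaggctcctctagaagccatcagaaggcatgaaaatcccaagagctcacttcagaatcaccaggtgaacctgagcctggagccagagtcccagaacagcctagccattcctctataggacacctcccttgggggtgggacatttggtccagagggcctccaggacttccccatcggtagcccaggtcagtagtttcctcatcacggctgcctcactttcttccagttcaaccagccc
Cxcr3: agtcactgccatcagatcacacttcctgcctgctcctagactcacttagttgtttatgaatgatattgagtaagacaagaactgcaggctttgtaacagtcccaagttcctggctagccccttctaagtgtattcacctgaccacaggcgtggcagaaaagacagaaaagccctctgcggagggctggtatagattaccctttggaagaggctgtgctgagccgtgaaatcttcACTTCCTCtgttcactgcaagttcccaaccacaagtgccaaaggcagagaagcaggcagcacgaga
Cxcr4: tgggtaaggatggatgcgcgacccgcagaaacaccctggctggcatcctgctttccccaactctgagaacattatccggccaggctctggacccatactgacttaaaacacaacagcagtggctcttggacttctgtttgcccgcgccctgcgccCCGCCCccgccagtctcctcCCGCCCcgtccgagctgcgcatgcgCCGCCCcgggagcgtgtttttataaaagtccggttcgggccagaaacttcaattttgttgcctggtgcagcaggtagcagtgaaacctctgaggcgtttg

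The motifs were the PU.1 letters GAGGAAGT, found in 3.20% of 32851 promoters of this length, the STAT letters TTCNNNGAA (8.30%), the interferon response letters GAAANNGAA (8.56%), the NF-kB letters GGGACTTTC (0.353%) and the GC box GGGCGG (35.7%). The Cxcr3 promoter holds 1 PU.1 match, which begins 16 bases before the start, and the Cxcr4 promoter holds 3 GC boxes, at 95, 75 and 50 bases before the start. A GC box also lies 68 bases before the start of Ackr3 and 195 bases before the most upstream of the 3 listed starts of Ccrl2, and the interferon response letters lie 86 bases before the start of Ccr2. The windows of Ccr1, Cxcr2 and Cx3cr1 hold none of these letters, which says nothing about binding elsewhere.

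Ccr1 (ENSMUSG00000025804), a receptor of monocytes, macrophages and neutrophils for Ccl3, Ccl6, Ccl9 and related ligands, lies on chromosome 9 from 123762161 to 123768729. It measured 1.27, 1.09 and 0.679 CPM in PBS tumors 1, 2 and 3, and 4.69, 3.799 and 6.12 CPM in GB2 tumors 1, 2 and 3. The groups did not overlap, and the lowest GB2 tumor was 3.00-fold above the highest PBS tumor, the widest such gap of the 9 genes. The PBS mean was 1.01 ± 0.303 CPM and the GB2 mean 4.87 ± 1.17 CPM (SD, n = 3 each), which edgeR fitted as 2.26 on the log2 scale (SE 0.37, adjusted p = 0.186). DESeq2 fitted 2.28 and an adjusted p of 2.2e-06. Over all alternative fits the adjusted p ran from 2.2e-06 to 0.710, and DESeq2 was the only one to call the gene.

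Ccr2 (ENSMUSG00000049103), the monocyte receptor for Ccl2, Ccl7 and Ccl12, lies near Ccr1 on chromosome 9 from 123901987 to 123913594. PBS tumors 1 to 3 stood at 0.795, 2.2 and 0.439 CPM and GB2 tumors 1 to 3 at 3.74, 1.96 and 3.28 CPM. PBS tumor 2 lay above GB2 tumor 2, so the groups overlapped. The fitted log2 difference was 1.38 (SE 0.61, unadjusted p = 0.0540, edgeR), and the difference in means did not exceed the spread between tumors at the limit used. It passed the unadjusted limits in DESeq2 (adjusted p = 0.361), with counts divided by 4 (edgeR, adjusted p = 0.647) and in limma on log2(FPKM + 0.1) (adjusted p = 0.616). Without PBS tumor 2 it passed them too, at a log2 fold change of 2.28 (edgeR, adjusted p = 0.420), and without PBS tumor 3 it was 0.998.

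Ccr7 (ENSMUSG00000037944), the lymph node homing receptor for Ccl19 and Ccl21, lies on chromosome 11 from 99035022 to 99045903. PBS tumors 1, 2 and 3 had 11, 20 and 6 deposited counts, and GB2 tumors 1, 2 and 3 had 32, 28 and 36. The groups did not overlap, yet the gap was narrow, with the lowest GB2 tumor 1.19-fold above the highest PBS tumor. Mean levels were 0.185 ± 0.0995 CPM for PBS and 0.380 ± 0.0434 CPM for GB2 tumors (SD, n = 3 each), fitted by edgeR as 1.03 on the log2 scale (SE 0.63, unadjusted p = 0.141). When all counts were divided by 4, to bring them nearer to read pairs, Ccr7 no longer passed the filter on low counts, and 6 of the other receptors had groups without overlap, against 8.80% of all genes in that setting. At this depth the difference was not distinguishable from the spread between tumors.

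**Figure D1:**
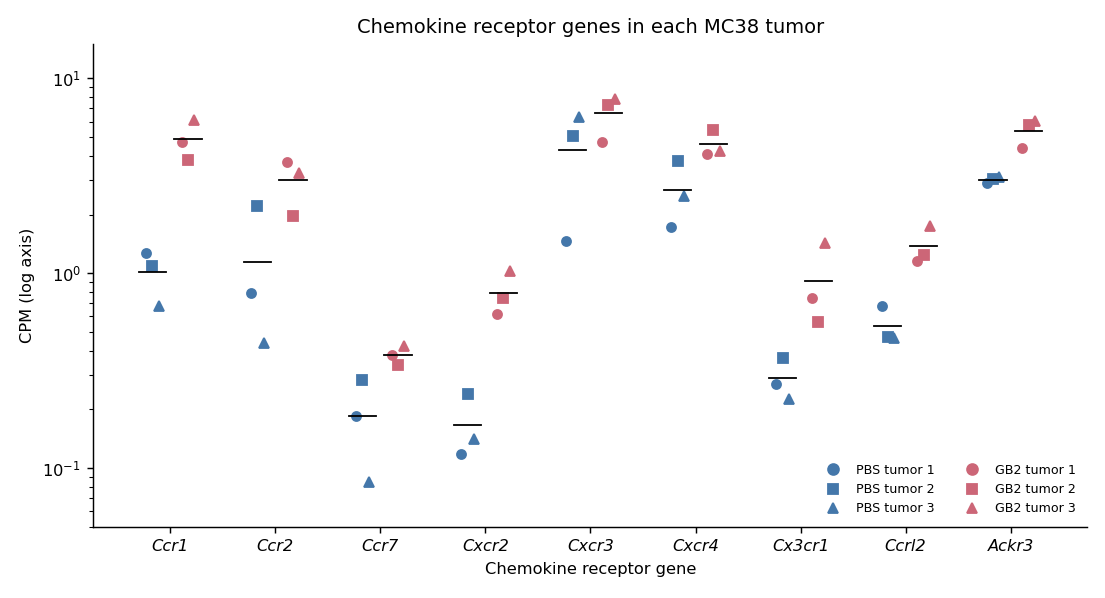
CPM of the 9 receptor genes on a log axis, with 1 point per tumor (PBS blue, GB2 red, n = 3 each) and a black line at each group's mean. The red points lie above all blue points in 7 genes and overlap with them in Ccr2 and Cxcr3.

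Cxcr2 (ENSMUSG00000026180), the neutrophil receptor for Cxcl1, Cxcl2, Cxcl3 and Cxcl5, lies on chromosome 1 from 74193148 to 74200405. Its levels in PBS tumors 1 to 3 were 0.118, 0.241 and 0.142 CPM, and those in GB2 tumors 1 to 3 were 0.619, 0.745 and 1.02 CPM. The lowest GB2 tumor was 2.57-fold above the highest PBS tumor, although the PBS counts were only 7, 17 and 10. The mean was 4.77-fold higher in GB2 tumors, or 2.24 on the log2 scale in edgeR's fit (SE 0.53, adjusted p = 0.281). The adjusted p of 0.0295 in DESeq2 passed the limit, and over all alternative fits it ran from 0.0295 to 0.891.

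Cxcr3 (ENSMUSG00000050232), the receptor of activated T cells and NK cells for Cxcl9, Cxcl10 and Cxcl11, lies on the X chromosome from 100775141 to 100777875. PBS tumors 1 to 3 stood at 1.47, 5.08 and 6.37 CPM and GB2 tumors 1 to 3 at 4.73, 7.32 and 7.87 CPM. GB2 tumor 1 lay below PBS tumors 2 and 3, and only PBS tumor 1 lay below all GB2 tumors. edgeR fitted 0.62 on the log2 scale (SE 0.51, unadjusted p = 0.263), and this was 0.23 without PBS tumor 1 and 1.02 without PBS tumor 3. Of the 9 genes, Cxcr3 had the smallest fitted change.

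Cxcr4 (ENSMUSG00000045382), the receptor for Cxcl12, is carried by many leukocytes and by endothelial cells, and lies on chromosome 1 from 128515936 to 128520030. Its levels in PBS tumors 1 to 3 were 1.73, 3.76 and 2.49 CPM, and those in GB2 tumors 1 to 3 were 4.09, 5.42 and 4.26 CPM. The groups did not overlap, by a factor of only 1.09 between PBS tumor 2 and GB2 tumor 1. The fitted difference was 0.79 on the log2 scale (SE 0.35, unadjusted p = 0.0585, edgeR). Without PBS tumor 2, the highest of its group, it was 1.12 and passed the unadjusted limits (edgeR, adjusted p = 0.570). DESeq2 fitted 0.79, below the 2-fold limit, with an unadjusted p under 0.05 (adjusted p = 0.519).

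Cx3cr1 (ENSMUSG00000052336), the receptor of monocytes and resident macrophages for Cx3cl1, lies on chromosome 9 from 119877749 to 119898945. PBS tumors 1 to 3 stood at 0.271, 0.369 and 0.226 CPM and GB2 tumors 1 to 3 at 0.750, 0.565 and 1.42 CPM. All GB2 tumors were above all PBS tumors, and GB2 tumor 3 stood well above the other GB2 tumors. On the log2 scale edgeR fitted 1.66 (SE 0.52, adjusted p = 0.509). This was 1.18 without GB2 tumor 3, and the unadjusted limits were then no longer passed. They were also missed with tumor number as a replicate block (1.57) and in limma on log2(FPKM + 0.1) (0.86) and on log2(FPKM + 1) (0.18).

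Ccrl2 (ENSMUSG00000043953), the atypical chemerin receptor, lies on chromosome 9 from 110883554 to 110886587. Its levels in PBS tumors 1 to 3 were 0.676, 0.468 and 0.467 CPM, and those in GB2 tumors 1 to 3 were 1.16, 1.24 and 1.75 CPM. The groups were separated by a factor of 1.71. The fitted log2 difference was 1.36 (SE 0.39, adjusted p = 0.414, edgeR), and it lay between 1.16 and 1.57 with each tumor left out in turn.

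Ackr3 (ENSMUSG00000044337), the atypical receptor that scavenges Cxcl12, lies on chromosome 1 from 90131702 to 90144473. PBS tumors 1 to 3 stood at 2.89, 3.05 and 3.10 CPM and GB2 tumors 1 to 3 at 4.37, 5.74 and 6.01 CPM. The PBS tumors were nearly alike, and every GB2 tumor was at least 1.41-fold above the highest of them. Its log2 fold change of 0.83 had the smallest standard error of the 9 genes, 0.26, with an unadjusted p of 0.0134 and an adjusted p of 0.491 in edgeR. The change stayed under the 2-fold limit in each fit with a tumor left out, from 0.75 to 0.96. The sizes of the changes of different receptors were not tested against one another. A two-sided exact permutation test on log2 CPM gave p = 0.1 for each of the 7 genes without overlap, the smallest value that 3 tumors against 3 allow, 0.2 for Ccr2 and 0.3 for Cxcr3.

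**Figure D2:**
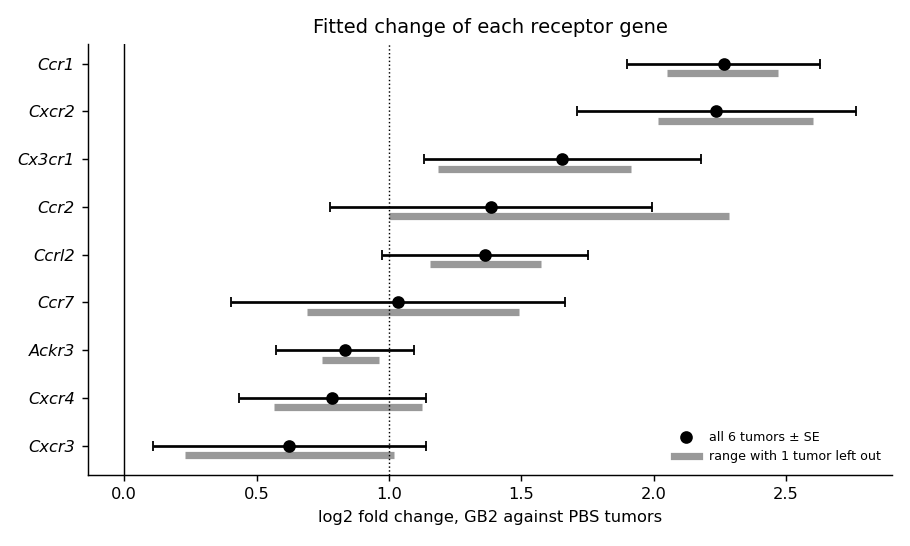
Fitted log2 fold change of each receptor gene between GB2 and PBS tumors, with its standard error (black), and the range of the fold change when 1 of the 6 tumors is left out (grey). The dotted line marks a 2-fold change. Ccr2 has the widest grey range, from 0.998 to 2.28, and all ranges lie above 0.

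Levels between genes were compared by FPKM, which the authors divided by transcript length. In PBS tumors the order by mean FPKM was Cxcr3 (2.37 ± 1.48, SD, n = 3), Cxcr4 (1.38 ± 0.595), Ackr3 (0.836 ± 0.0854), Ccr1 (0.327 ± 0.0824), Ccrl2 (0.189 ± 0.0282), Ccr2 (0.158 ± 0.134), Ccr7 (0.0826 ± 0.0470), Cx3cr1 (0.0586 ± 0.0153) and Cxcr2 (0.0472 ± 0.0196). Neighbours in this order overlapped over tumors except Ackr3 with Ccr1 and Ccr1 with Ccrl2. In GB2 tumors the order was Cxcr3 (3.75 ± 0.931), Cxcr4 (2.47 ± 0.336), Ccr1 (1.69 ± 0.434), Ackr3 (1.57 ± 0.248), Ccrl2 (0.519 ± 0.128), Ccr2 (0.434 ± 0.142), Cxcr2 (0.254 ± 0.0697), Cx3cr1 (0.198 ± 0.101) and Ccr7 (0.187 ± 0.0249). Here only Cxcr4 with Ccr1 and Ackr3 with Ccrl2 did not overlap. Ccr1 was below Ackr3 in all PBS tumors, whereas the ranges of both genes overlapped in GB2 tumors, from 1.28 to 2.14 FPKM for Ccr1 and from 1.29 to 1.78 FPKM for Ackr3.

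**Figure D3:**
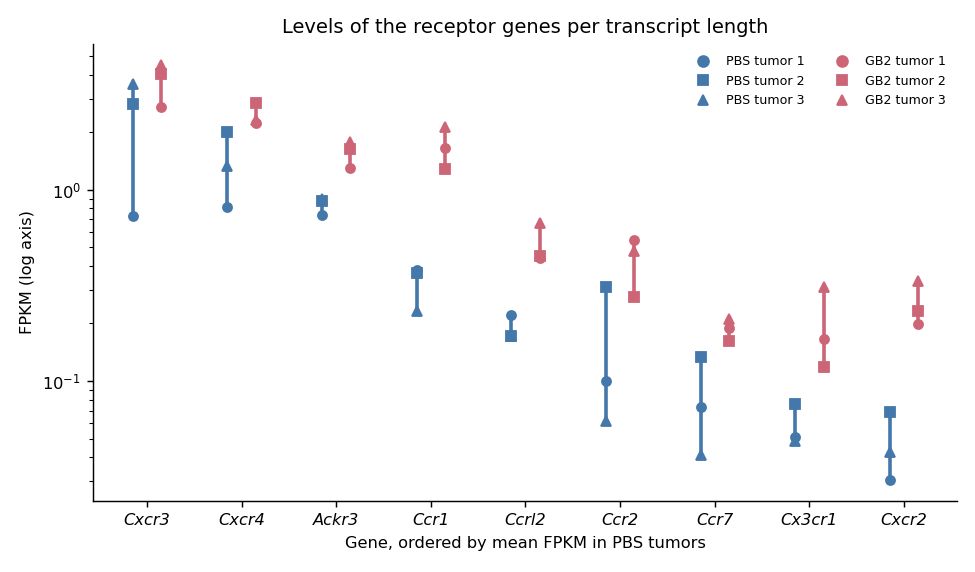
FPKM of each receptor gene on a log axis, ordered by the mean of the PBS tumors, with 1 point per tumor (PBS blue, GB2 red) and a bar from the lowest to the highest tumor. Cxcr3, Cxcr4 and Ackr3 lead in PBS tumors, and Ccr1 stands level with Ackr3 in GB2 tumors.

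Bulk RNA cannot tell more cells of a type from more RNA per cell, and markers of several cell types moved with the receptors. Beside each marker list below stand the shares over all genes tested, 3.74% past the unadjusted limits as higher and 0.918% as lower. The macrophage list (Adgre1, Csf1r, Cd68, C1qa and others) was higher beyond the unadjusted limits in 9 of 9 genes. Its summed level ran from 63.6 to 89.5 CPM in PBS and from 252 to 352 CPM in GB2 tumors. Set against this sum, Ccr1 was 0.37 higher in GB2 than in PBS tumors on the log2 scale (exact two-sided permutation test, p = 0.2), and Cxcr2 was 0.37 higher (p = 0.2, exact test). Relative to the same sum, Ackr3 had a GB2 minus PBS difference of -1.10, Cxcr4 one of -1.07 and Ccrl2 one of -0.56 on the log2 scale, with no overlap between the groups for any of these 3 genes (exact permutation test, p = 0.1 each). The corresponding differences of Ccr2 (-0.26), Cx3cr1 (-0.34), Ccr7 (-0.72) and Cxcr3 (-1.08) came with overlapping groups. Because the sum itself was higher in every GB2 tumor, any gene that rose less than the sum has a negative difference here. The share of all genes that separate in this way was not computed. These ratios are therefore not levels per macrophage.

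The leukocyte list (Ptprc, Cd53, Laptm5 and Coro1a) also moved with the receptors, with 2 of 4 genes past the unadjusted limits as higher and sums from 8.15 to 20.8 CPM in PBS and from 31.7 to 51.4 CPM in GB2 tumors. Ptprc, the gene of the pan-leukocyte antigen CD45, stood at 5.06, 4.85 and 1.54 CPM in PBS and 5.72, 7.08 and 13.4 CPM in GB2 tumors 1 to 3, without overlap (1.20 on the log2 scale, SE 0.52, adjusted p = 0.725, edgeR). PBS tumor 3 was far below the others, which raises every ratio to Ptprc in that tumor. Relative to Ptprc, Ccr1 was 1.004 higher in GB2 tumors on the log2 scale. Its GB2 ratios were -0.29, -0.90 and -1.13 and its PBS ratios -1.995, -2.15 and -1.18, so GB2 tumor 3 and PBS tumor 3 nearly met (exact permutation test, p = 0.1). Cxcr2 was also higher relative to Ptprc, by 1.01, with overlapping groups (p = 0.2, exact permutation test). The other 7 receptors differed from Ptprc by -0.46 to 0.38 between the groups, with exact permutation p values from 0.4 to 1.0. The part of macrophage or leukocyte content in the receptor differences was not tested further.

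The neutrophil list moved with Cxcr2. Of its 6 tested genes, 4 passed the unadjusted limits as higher, and the sum of the list ran from 2.41 to 4.83 CPM in PBS and from 10.1 to 12.7 CPM in GB2 tumors. S100a8, S100a9 and Csf3r were measured in every tumor, whereas Ly6g, a defining neutrophil gene of the mouse, had 0 counts in all 6 tumors. At 3 read pairs, taken as 12 counts, this allows up to 0.141 to 0.203 CPM per tumor. Il1r2 stood at 0.466 CPM in PBS and 1.12 CPM in GB2 tumors.

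Cxcr3 and the T cell list did not share their order in the PBS tumors. Cd3d, Cd3e, Cd3g, Cd8b1 and Trac had 0 counts in PBS tumor 3, where Cxcr3 had 450 counts, its highest in the PBS group. The 7 T cell genes summed to 0.0896 FPKM in that tumor, against 3.57 FPKM for Cxcr3 alone. In PBS tumor 2, where the list was highest at 2.55 FPKM, Cxcr3 stood at 2.82 FPKM, and in PBS tumor 1 the values were 0.666 FPKM for the list and 0.726 FPKM for Cxcr3. In GB2 tumors 1, 2 and 3 the list summed to 0.203, 0.597 and 1.61 FPKM and Cxcr3 stood at 2.71, 4.04 and 4.51 FPKM. The order of both was thus the same among the GB2 tumors, at lower list sums than in PBS tumor 2. Of the 7 T cell genes, 0 passed the unadjusted limits in either direction, and 6 had fitted values below 0, with a median log2 fold change of -0.34. The 3 tested NK genes also held none that passed. No other gene of the table overlaps Cxcr3, and none of its 100-base transcript stretches occurs exactly in the annotated transcripts of another gene. Inexact matches and sequence outside annotated transcripts were not searched. Which cells carried the Cxcr3 RNA, and whether all reads counted for it came from this gene, was not tested.

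**Figure D4:**
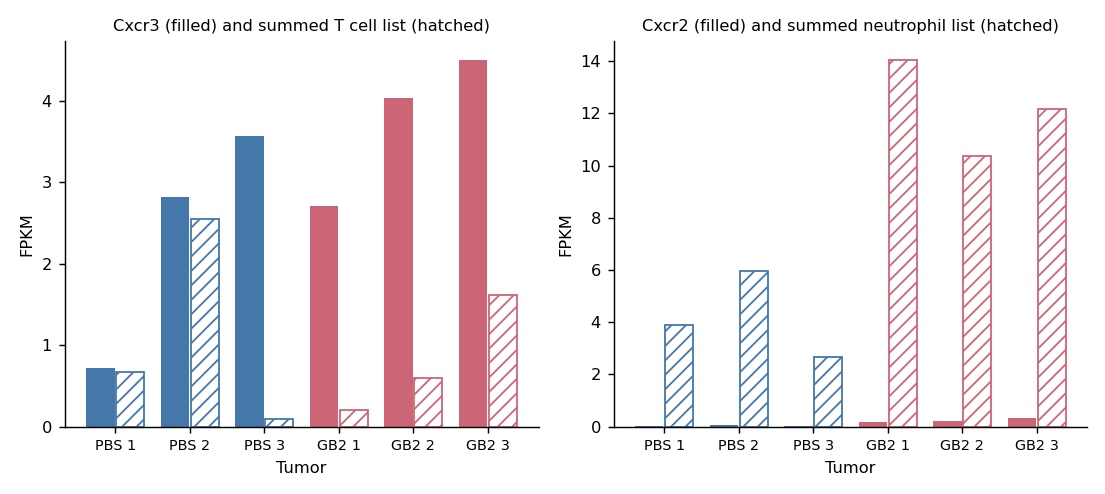
FPKM of Cxcr3 beside the summed T cell list (left) and of Cxcr2 beside the summed neutrophil list (right) in each tumor, receptor filled and list hatched, PBS blue and GB2 red. Cxcr3 reaches 3.57 FPKM in PBS tumor 3, where the T cell list is at 0.0896 FPKM, while Cxcr2 and the neutrophil list are both higher in every GB2 tumor than in every PBS tumor.

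For Ccr7, the dendritic cell list gave 0 of 6 tested genes past the unadjusted limits, and its sum, of which Fscn1 makes up most, ran from 71.4 to 103 CPM in PBS and from 91.7 to 102 CPM in GB2 tumors. The B cell list gave 0 of 3, with sums from 0.575 to 1.32 CPM and from 0.512 to 1.20 CPM. For the receptors of stroma and vessels, Ackr3 and Cxcr4, the endothelial list passed in 5 of 6 genes (38.7 to 50.4 CPM in PBS, 103 to 116 CPM in GB2 tumors) and the fibroblast list in 6 of 6 (203 to 371 CPM against 715 to 977 CPM). The monocyte list passed in 3 of 6 genes. Its sum, of which Fn1 makes up most, overlapped, from 75.2 to 253 CPM in PBS and from 224 to 340 CPM in GB2 tumors. Fn1 (log2 fold change 0.55) did not pass and its groups overlapped. F13a1 (1.97) and Vcan (1.27) passed without overlap, and Chil3 (2.89) passed with overlap. Ly6c2 (1.11) and Plac8 (1.03) did not pass, and their groups overlapped. The part of these cell types in the receptor differences was not tested.

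Ligand genes of the 9 receptors were described in the same fit. Of 24 listed ligands, 21 were tested, 19 had a fitted value above 0, and 8 passed the unadjusted limits as higher, while 0 passed as lower. Over all genes tested, 48.3% had a fitted value above 0, 3.74% passed as higher and 0.918% as lower. Among the ligands of Ccr1, Ccl6 was at 4.48 CPM in PBS and 12.8 CPM in GB2 tumors (log2 fold change 1.51), Ccl9 at 3.60 and 9.71 CPM (1.43), and Ccl7 at 2.77 and 5.20 CPM (0.91). Of the 7 ligands listed for Ccr1, Ccl8 (1.89), Ccl6 and Ccl9 were the 3 that passed. The pairing of Ccl8 with Ccr1 is that of the list and was not tested here. Ccl5, a T cell and macrophage chemokine, went the other way, at 2.57, 3.79 and 2.22 CPM in PBS and 1.55, 1.58 and 1.51 CPM in GB2 tumors 1 to 3. Its log2 fold change of -0.89 stayed under the 2-fold limit (unadjusted p of 0.0260, adjusted p of 0.625 in edgeR), and its groups did not overlap.

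For Ccr2, Ccl2 measured 3.53 ± 2.23 CPM (SD, n = 3) in PBS and 7.12 ± 1.65 CPM (SD, n = 3) in GB2 tumors, and Ccl12, at 0.689 and 2.33 CPM, was the only one of the 3 ligands to pass. For Cxcr2, 3 of 5 ligands passed. Cxcl5 stood at 1.27 ± 0.236 CPM (SD, n = 3) in PBS and 4.80 ± 0.350 CPM (SD, n = 3) in GB2 tumors, and its unadjusted p of 2.1e-04 was the smallest of the ligands (adjusted p of 0.186, edgeR). Cxcl2 was at 0.715 and 2.84 CPM, and Cxcl1 at 1.15 and 1.45 CPM. Cxcr2 and its ligands were higher in the same tumors, except Cxcl1 and Ppbp, whose groups overlapped.

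For Cxcr3, 0 of 3 ligands passed, and the spread within groups was wide. Cxcl9 measured 1.67, 11.2 and 0.509 CPM in PBS and 3.41, 7.77 and 18.2 CPM in GB2 tumors 1 to 3, and Cxcl10 measured 7.78, 22.1 and 2.82 CPM and 10.3, 6.83 and 32.6 CPM. PBS tumor 2 had the highest Cxcl9 and Cxcl10 of its group, and PBS tumor 3, with the highest Cxcr3 of its group, had the lowest. Cxcl12, the stromal ligand of Cxcr4 and Ackr3, was at 7.01 ± 1.77 CPM (SD, n = 3) in PBS and 15.2 ± 2.14 CPM (SD, n = 3) in GB2 tumors, which is 1.11 on the log2 scale (SE 0.26, adjusted p = 0.276, edgeR). Cx3cl1, the ligand of Cx3cr1, was at 1.67 and 2.83 CPM, and Ccl21a, the only tested ligand of Ccr7, at 0.105 and 0.360 CPM, both with overlapping groups. The chemerin gene Rarres2, listed for Ccrl2, was at 22.4, 4.74 and 3.69 CPM in PBS and 9.42, 7.07 and 9.54 CPM in GB2 tumors 1 to 3, so PBS tumor 1 alone set its PBS mean above the GB2 mean.

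**Figure D5:**
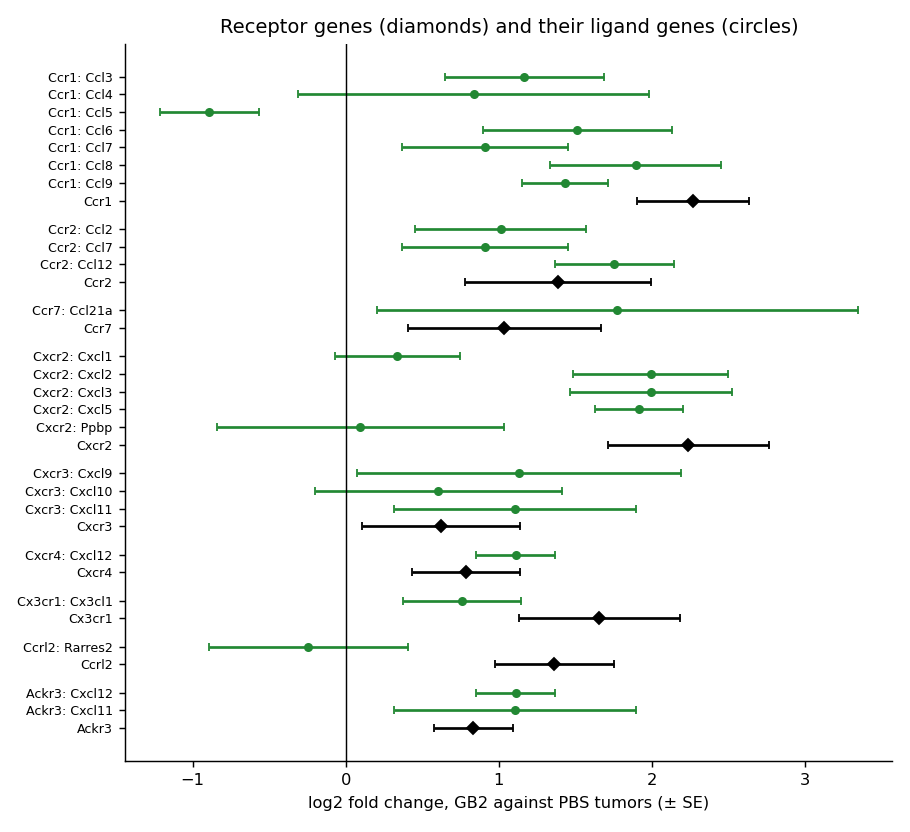
Fitted log2 fold changes with standard errors of each receptor gene (black diamonds) and of its tested ligand genes (green circles), GB2 against PBS tumors. Ccl5 and Rarres2 are the only ligands below 0, at -0.89 and -0.24, and Cxcl2, Cxcl3 and Cxcl5 lie near 2 beside Cxcr2.

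Of 15 other chemokine receptor genes, 14 were in the table and 8 passed the filter on low counts. Fitted values of these 8 ran from 0.007 to 1.46, with a median of 0.32, where 48.3% of all genes tested were above 0. Of the 8, 1 passed the unadjusted limits as higher, against 3.74% of all genes tested. Ccr6 was not analysed here. The signaling list covers G proteins, kinases, arrestins and regulators of migration, with a median log2 fold change of 1.24. Of its 24 tested genes, 12 passed as higher and 0 as lower, against 3.74% and 0.918% of all genes tested. Among those that passed were the Rac activators Vav1 (2.03), Dock2 (2.02) and Elmo1 (1.58) and the phosphoinositide kinase Pik3cg (2.90). The widely expressed G protein genes Gnai2 (0.23), Gnai3 (0.26) and Gnb1 (-0.13) and the arrestin genes Arrb1 (0.33) and Arrb2 (0.01) did not pass.

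By the root mean square difference of mean-centred log2 CPM over the 6 tumors, the tested genes most like Ccr1 were Tnc (0.118) and Ptafr (0.126), and those most like Cxcr2 were Mpeg1 (0.131) and Ly9 (0.149). Lmo2 (0.093) and Rasa4 (0.124) were nearest to Ccr7, Tmem45a (0.075) and Lum (0.115) to Ccrl2, and Cdkn1c (0.104) and Fermt3 (0.111) to Ackr3. For Cx3cr1 these were Col8a1 (0.151) and Clec4a1 (0.157), for Cxcr4 Gm5903 (0.098), for Cxcr3 Gm38155 (0.143) and Nlrp12 (0.163), and for Ccr2 Gm10548 (0.216) and Bves (0.252). Ccr2 was thus the receptor with the least close match, and Gm10548 itself was at only 0.063 CPM in PBS and 0.166 CPM in GB2 tumors. These are the smallest distances over all genes tested, each from 6 values, so close matches can arise for any gene. No background distance was computed, and shared regulation was not tested. Among the 9 receptors themselves, Cxcr4 and Ackr3 lay closest (0.330), and Ccr1 and Cxcr2 were each other's nearest (0.405).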

How the data were processed

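RNA of 6 MC38 tumors, 3 PBS and 3 GB2, was measured by poly-A selected, strand-marked paired-end sequencing. The submitters' processing notes list cutadapt 1.9, HISAT2 2.2.1, StringTie 2.1.6, DESeq2, edgeR and mm10. The authors deposited whole-number count estimates per gene, not scaled between tumors, in which low values gather at 4 and 8 (7017 values of 4 against 2984 of 3 and 2017 of 5). The authors also deposited FPKM, scaled by transcript length and library. Of 31999 gene IDs shared with GENCODE M21 on GRCm38, 2.00% have the table's start and end, so printed gene positions are those of the table and were not placed on that build, while promoter positions are GRCm38.p6.

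The whole table was fitted in R 4.3.3 with edgeR 4.0.16 (filterByExpr with a minimum count of 10, TMM factors from 0.914 to 1.04, glmQLFit and glmQLFTest, Benjamini-Hochberg over 19602 genes). The study's limits were kept, an FDR below 0.05 and a 2-fold change. The unadjusted limits mean p under 0.05 and a 2-fold change. All 9 receptors passed the filter, though 1 PBS tumor each of Ccr7 and Cxcr2 lay under its cutoff of 0.132 CPM. log2 CPM used a prior count of 2. Standard errors given for edgeR, also in the figures, were derived from its test. Each is the absolute log2 fold change divided by the square root of the F statistic. Single values were compared by exact two-sided permutation of the 6 tumors. DESeq2 1.42.0 and limma 3.58.1 served as alternatives. These 3 tools were run on simulated counts as a check of the code. The simulated counts had less spread than these tumors and larger changes than most of the receptors. That check therefore says nothing of the power to find the changes reported here.

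The receptors, ligand, signaling and marker lists and the naming rule (these lists, the 3 most abundant ligands per receptor, and the 2 genes of nearest pattern) were chosen with earlier results of these data known. The promoter motifs were chosen after the data were seen, as were Ccl5, Ccl8, Cxcl3 and Ppbp among the ligands named, the markers named singly, and the signaling genes named that did not pass. Some genes that the rules would name are not reported here. The labels do not say that tumor numbers pair the tumors, and no sequencing batch is given.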

Additional observations from a re-analysis of the deposited data

How the results depend on the processing

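All 133 values of single receptor genes under the 15 alternative fits were above 0, as in the fit reported. The number of receptors called was 0 in 14 of these fits and 2 (Ccr1 and Cxcr2) in DESeq2. The number past the unadjusted limits was 4 in the fit reported, 5 in DESeq2 and with counts divided by 4 (2.98% and 4.10% of all genes, Ccr2 being the gene added in both), and 1, Ccr1, with limma on log2(FPKM + 1) (0.499% of all genes), which understates changes of genes far below 1 FPKM. With each tumor left out in turn, it ran from 3 to 6 (2.49% to 4.63% of all genes), the number called stayed at 0 in all 6 such fits, and the number with groups that did not overlap ran from 7 to 8. Over all genes the share without overlap was then 11.6% to 15.7%, since 2 tumors against 3 separate more often, so the last count says little of stability. The count of 6 was without PBS tumor 2, which added Ccr2 and Cxcr4, and that of 3 without GB2 tumor 3, which lost Cx3cr1. The same tumor numbers were also fitted as a replicate block, which gave 3 receptors past the unadjusted limits (3.24% of all genes), Cx3cr1 being the gene lost, and 0 called. The deviations of same-numbered tumors from their group means correlated at 0.03, 0.15 and -0.24, and 1 of 3 PBS tumors correlated best with the GB2 tumor of its number. So few correlations cannot decide whether the numbers pair the tumors, and the labels do not say that they do. Depth limits Ccr7, Cxcr2 and Cx3cr1 most, and the biological coefficient of variation of 40.5% limits what 3 tumors per group can show.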
